A study of Homo sapiens with 8 samples.

Results

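Metallothioneins are small, cysteine-rich proteins that bind zinc, copper and cadmium and buffer free metal in the cell. The members described here are 8 human metallothionein genes, MT2A, MT1X, MT1E, MT1F, MT1G, MT1M, MT1A and MT1H, and MTF1, the zinc finger factor that senses zinc and switches metallothionein genes on. They were taken from the deposited table by symbol, and all 9 of 9 were found among its 57773 genes. The 8 metallothionein genes lie in a cluster of 76.0 kb on chromosome 16 (56642111 to 56718108, hg19), and MTF1 lies on chromosome 1 (38275239 to 38325292). Of the 9 genes 6 had a value above 0 in at least 1 library, 5 reached the mean level required for a test, and 3 were listed at 0 throughout.

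RNA came from ZR-75-1, an established estrogen receptor positive breast cancer line. All cells spent 72 h in steroid-depleted medium (phenol red-free, with charcoal-stripped serum), and all received 10 nM estradiol (E2) for the final 4 h. In the E2+DHT group 10 nM dihydrotestosterone (DHT), a potent androgen, was given with it. Each treatment had 4 libraries, and none was made without hormone. Within a treatment replicates 1 and 3 share a passage number in the labels, as do replicates 2 and 4. Whether libraries of the same passage were separate cultures is not stated, so the spread behind the p-values may in part be technical. In 4 of the 8 records the title names the other treatment than the library name. Groups here follow the library name, which also heads the column of values. Under this reading passages 8 and 10 were E2 and passages 9 and 11 were E2+DHT, so that passage and treatment cannot be told apart. Under the titles each treatment would instead hold passages 8, 9, 10 and 11, with no passage shared within a treatment.

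Library sizes recovered from the values ran from 19599217 to 34616639 reads. Of these, 78.3% to 83.7% lay in the exons of the table in E2 libraries and 83.2% to 84.8% in E2+DHT libraries. All 8 luminal breast markers checked were expressed, from ESR1 at a mean of 6.17 RPKM (reads scaled by exon length and library size) to KRT19 at 857.4 RPKM. Of the other markers, 1 of 6 basal, 1 of 6 fibroblast, 0 of 5 immune and 0 of 4 endothelial ones reached a mean of 0.5 RPKM.

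Metallothionein genes are known as steroid-responsive as well as metal-responsive genes, and human MT2A is a textbook target of the glucocorticoid receptor, whose DNA element the androgen receptor can also bind. In response to zinc or cadmium, MTF1 binds metal response elements, short motifs that are repeated upstream of these genes. The family arose by tandem duplication, so its coding sequences are very alike. They are shown first because this likeness bears on how reads can be assigned to single genes. Each of the 8 reading frames, taken from GENCODE release 29 (GRCh38), was 186 bases long, and 20 of its 61 codons before the stop were TGC or TGT, which encode cysteine. Below is the frame of MT2A in lower case, followed by the 3 other members that had enough reads for a test and by MT1G, the nearest to MT2A, with capitals at each base that differs from MT2A at the same position.
MT2A: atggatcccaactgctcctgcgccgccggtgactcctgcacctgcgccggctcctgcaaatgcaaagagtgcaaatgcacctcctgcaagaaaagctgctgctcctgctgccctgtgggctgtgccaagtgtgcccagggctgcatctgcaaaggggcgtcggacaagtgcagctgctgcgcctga
MT1E: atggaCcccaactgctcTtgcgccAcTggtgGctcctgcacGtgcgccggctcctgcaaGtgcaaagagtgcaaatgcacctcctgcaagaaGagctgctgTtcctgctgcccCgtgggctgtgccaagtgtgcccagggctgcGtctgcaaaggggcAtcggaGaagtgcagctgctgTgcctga
MT1F: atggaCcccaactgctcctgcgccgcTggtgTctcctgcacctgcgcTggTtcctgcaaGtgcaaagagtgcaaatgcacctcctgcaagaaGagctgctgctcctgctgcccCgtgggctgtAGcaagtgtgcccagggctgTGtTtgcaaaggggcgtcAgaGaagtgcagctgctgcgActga
MT1X: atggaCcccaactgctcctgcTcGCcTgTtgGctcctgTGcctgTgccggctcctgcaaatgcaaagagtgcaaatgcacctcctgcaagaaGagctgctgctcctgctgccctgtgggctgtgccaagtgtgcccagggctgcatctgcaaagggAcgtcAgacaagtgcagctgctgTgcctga
MT1G: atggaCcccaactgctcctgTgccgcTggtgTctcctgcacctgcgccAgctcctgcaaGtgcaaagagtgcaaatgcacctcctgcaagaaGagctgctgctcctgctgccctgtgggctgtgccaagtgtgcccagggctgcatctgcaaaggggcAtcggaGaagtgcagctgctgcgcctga

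Against MT2A, MT1G had 9 differing bases, MT1E and MT1X 14 each and MT1F 16. Over all 28 pairs of the 8 frames, identity ran from 88.7% to 95.2% with a median of 91.9%. Of all windows of 100 bases, the stated read length, in 1 annotated transcript per gene, 0% in 7 of the 8 genes and 3.36% in MT1H recurred exactly in a transcript of another metallothionein gene. With up to 2 mismatches the share was 8.15% in MT2A, 11.7% in MT1X, 3.97% in MT1E, 12.8% in MT1H, 6.19% in MT1G and 0% in MT1F, MT1M and MT1A. How the authors' counting treated reads that fit more than 1 gene is not given in the sources used here, so the level of each single metallothionein gene is uncertain to that extent.

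The family was expressed from few of its genes. MT2A, the main metallothionein of most human cells, had the highest level per length in every E2+DHT library and in 3 of the 4 E2 libraries. MT1F came next, then MT1E and MT1X, all of them low, while MT1A, MT1G and MT1H were listed at 0 in all 8 libraries. MT1M was listed at 0 in 7 libraries and had 0.167 RPKM in E2 replicate 2, which is 2 reads at the shortest length that gives whole reads and 4 at the annotated exon length of 942 bases. A count of 0 allows up to 3 reads per library, or 0.0867 to 0.153 reads in each 1000000 of the library, for counting error only. Outside the members, the table held 12 other metallothionein rows, among them MT3, MT4, MT1B and several pseudogenes. Of these, MT4 alone had a value above 0, of 0.107 RPKM or 1 read in E2+DHT replicate 4. MT1IP was not analysed here. MTL5 is a metallothionein-like gene whose product, also called tesmin, is not a small metallothionein. Its level was 2.75 ± 0.312 RPKM with E2 alone and 2.78 ± 0.264 RPKM with DHT added (mean ± SD, n = 4 per treatment).

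**Figure D1:**
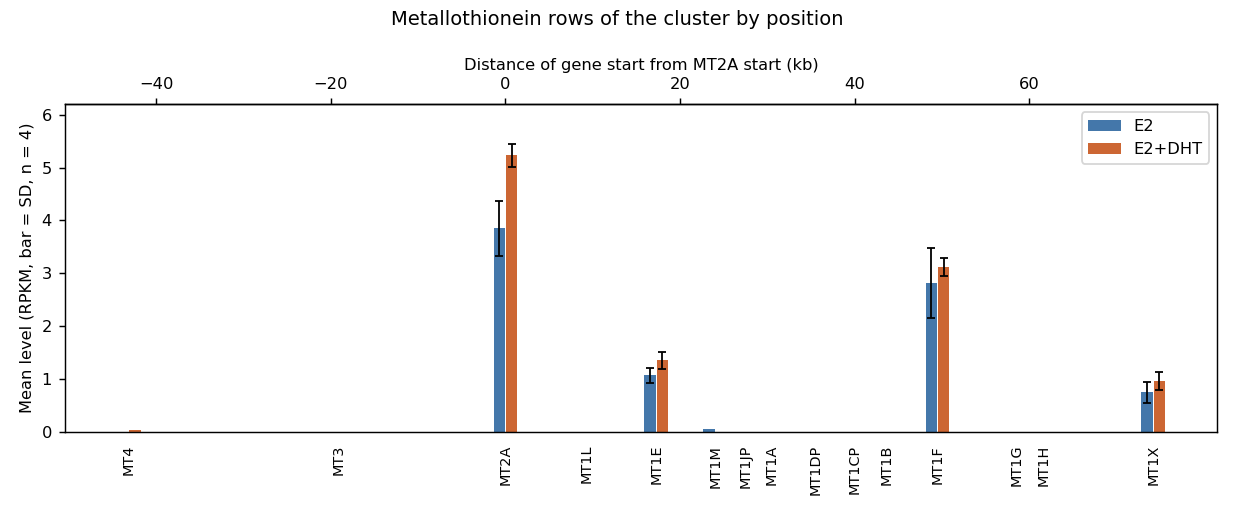
Mean level in RPKM of the metallothionein rows of the chromosome 16 cluster, in order of their start, given in kb from the start of MT2A (top axis). Blue bars are E2 and orange bars E2+DHT, with SD bars for tested genes (n = 4 per group). MT2A, MT1E, MT1F and MT1X carry the signal and the genes between them stay at or near 0.

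MT2A (ENSG00000125148, chromosome 16, 56642111 to 56643409, hg19) was measured at 3.57, 3.26, 4.40 and 4.17 RPKM in E2 replicates 1 to 4 and at 5.43, 5.38, 4.98 and 5.14 RPKM in E2+DHT replicates 1 to 4. All 4 E2+DHT libraries lay above all 4 E2 libraries, and the spread was wider in E2 than in E2+DHT. The means were 3.85 ± 0.525 RPKM in E2 and 5.23 ± 0.210 RPKM in E2+DHT (mean ± SD, n = 4 per group), a ratio of 1.36. On the log2(RPKM + 0.5) scale, which understates the change of low genes, the fold change was 0.40 with a standard error of 0.0894 and a 95% interval of 0.21 to 0.60. This did not pass the threshold of 0.05 after adjustment over all 11375 tested genes (limma adjusted p = 0.180, unadjusted p = 0.00105, rank 66 by p). With groups taken from the record titles the log2 fold change was 0.10. The E2+DHT libraries also had a larger share of their reads in exons, with ranges that overlap, and the part of this in the result was not tested. Within E2, replicates 1 and 2, titled E2, had the lower values of MT2A, and replicates 3 and 4, titled E2+DHT in their records, the higher. Within E2+DHT the order was the opposite, with replicates 1 and 2, titled E2, above replicates 3 and 4.

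MT2A ranked 5327th by mean RPKM in the table, close to the middle of the tested genes (percentile 53.2), whose median level was 4.13 RPKM. Its value rests on 108 to 148 recovered reads per library in E2 and 137 to 244 in E2+DHT. The exon length behind its RPKM was 1299 bases, equal to the whole span of the gene, as the transcripts annotated in GENCODE release 29, a retained intron among them, together cover it end to end. Introns are therefore counted as exon for MT2A, and its level per length of the spliced transcript cannot be read from the table.

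**Figure D2:**
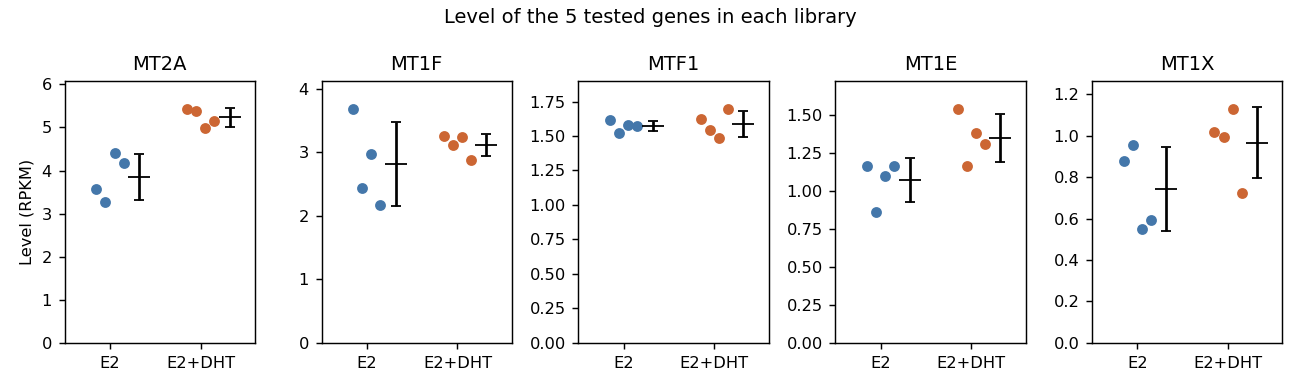
Level in RPKM of the 5 tested genes in each library of ZR-75-1 cells (points, in replicate order), with mean and SD to the right of the points (n = 4 per group). Vertical axes differ between panels and start at 0. MT2A does not overlap between E2 (blue) and E2+DHT (orange), MT1E is separated by a very small margin, and MT1F, MT1X and MTF1 overlap.

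The MT1 genes encode the other metallothioneins found outside the nervous system and squamous epithelia. MT1E (ENSG00000169715, 56659387 to 56661024) had 1.162, 0.858, 1.10 and 1.161 RPKM in E2 replicates 1 to 4 and 1.54, 1.164, 1.38 and 1.31 RPKM in E2+DHT replicates 1 to 4. The groups did not overlap, but the highest E2 and the lowest E2+DHT library nearly touched. The log2 fold change of MT1E was 0.24 with a standard error of 0.0921 (95% interval 0.032 to 0.44), which did not pass (limma adjusted p = 0.985, unadjusted p = 0.0274). With title-based groups it was 0.059. These values came from 23 to 56 recovered reads per library.

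MT1X (ENSG00000187193, 56716336 to 56718108) had 0.876, 0.954, 0.548 and 0.593 RPKM in E2 replicates 1 to 4 and 1.02, 0.992, 1.13 and 0.724 RPKM in E2+DHT replicates 1 to 4. The groups overlapped through E2+DHT replicate 4, which lay below E2 replicates 1 and 2. The log2 fold change of MT1X was 0.24 with a standard error of 0.128 (95% interval -0.041 to 0.53, limma adjusted p = 0.999). With groups taken from the record titles it was -0.25, and in the 4 records with agreeing labels -0.0030. At the shortest exon length that gave whole reads, 823 bases, MT1X had 9 to 32 reads per library. The 1773 exon bases annotated in GENCODE release 29 do not give whole reads for MT1X, so another length lay behind its RPKM. A non-coding row on the same strand, RP11-343H19.2, overlaps MT1X and was listed at 0.

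MT1F (ENSG00000198417, 56691606 to 56694610) had 3.68, 2.44, 2.97 and 2.17 RPKM in E2 replicates 1 to 4 and 3.25, 3.12, 3.23 and 2.87 RPKM in E2+DHT replicates 1 to 4. The E2 libraries spread over both sides of the E2+DHT libraries. The log2 fold change of MT1F was 0.15 with a standard error of 0.125 (95% interval -0.13 to 0.43, limma adjusted p = 0.999). Without E2 replicate 1, the highest of its group, it was 0.27, and without E2 replicate 4, the lowest, 0.051, neither past the threshold (limma adjusted p = 0.550 and 1.00). Title-based groups gave -0.13 and the 4 agreeing records 0.019. At the shortest exon length that gave whole reads, 1014 bases, MT1F had 45 to 119 reads per library.

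MTF1 (ENSG00000188786), the regulator, had 1.61, 1.52, 1.58 and 1.57 RPKM in E2 replicates 1 to 4 and 1.62, 1.55, 1.49 and 1.70 RPKM in E2+DHT replicates 1 to 4. The values of both treatments lay within a narrow band and overlapped throughout. Its log2 fold change was 0.010 with a standard error of 0.0638, and the 95% interval of -0.13 to 0.15 is the range of changes these libraries leave possible for its transcript (limma adjusted p = 1.00). With 243 to 451 recovered reads per library MTF1 was better measured than any metallothionein. Its direction flipped with the scaling, to -0.0091 after median centring and -0.049 with all libraries at the same RPKM sum.

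In total 0 of the 5 tested members passed as higher and 0 as lower (limma, Benjamini-Hochberg over all tested genes). Over all 11375 tested genes 0.176% passed as higher and 0.00879% as lower. At an unadjusted p under 0.05 the count was 2 of 5 members, both higher, while that rule called 2.87% of all tested genes higher and 1.59% lower. MT2A and MT1E were also the 2 members whose groups did not overlap, against 1.98% of all tested genes in the higher and 1.42% in the lower direction. All 5 log2 fold changes were above 0 (MTF1 turned negative under both other scalings), as were 56.3% of those of all genes. Their median was 0.24, and that of all tested genes 0.014. The count of 0 held in each of the 19 alternatives run, 1 of which (a mean of at least 2 RPKM) tested MT2A and MT1F only. Across these, the lowest adjusted p was that of MT2A after median centring (limma adjusted p = 0.0675, log2 fold change 0.39). For MT2A it was 1.00 under title-based groups and in the 4 records with agreeing labels. The log2 fold changes of MT2A there were 0.10 and 0.51, the latter from a fit with fewer libraries.

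**Figure D3:**
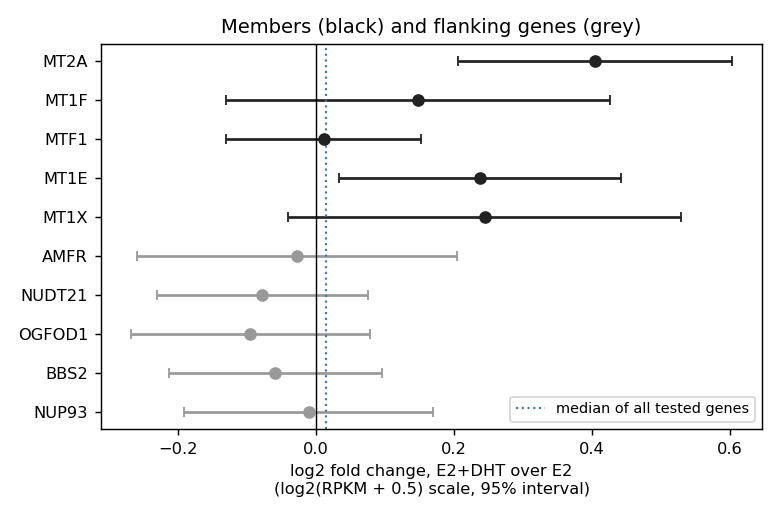
Log2 fold change of E2+DHT over E2 with 95% interval (limma, log2(RPKM + 0.5) scale, n = 4 per group) for the 5 tested members in black and the 5 tested flanking genes in grey. The dotted line is the median of all tested genes, 0.014. The intervals of MT2A and MT1E lie above 0, and no gene shown passed after adjustment over all tested genes.

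The order of levels by RPKM was MT2A, MT1F, MTF1, MT1E and MT1X in both treatments. This order depends on the exon length used. The shortest exon length that gave whole reads equalled the annotated length in MT2A and MT1E. In MT1F and MT1X it was 1014 and 823 bases, which differ from the annotated lengths. Annotated exons cover 1299 bases in MT2A, 1889 in MT1F, 1052 in MT1E and 1773 in MT1X. The 1 transcript per gene used above has 786, 690, 704 and 450 bases. The order per spliced transcript can therefore differ and was not tested. In E2, MT2A and MT1F overlapped, as did MT1E and MT1X, while MTF1 lay apart from its neighbours in that order. In E2+DHT, MT2A, MT1F and MTF1 were each separate from the next, MTF1 and MT1E overlapped, and MT1E and MT1X did not.

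Since some reads, if up to 2 mismatches are allowed, can fit more than 1 of these genes, the members were also summed. The 8 metallothionein genes together had 9.28, 7.68, 9.01 and 8.10 RPKM in E2 replicates 1 to 4 and 11.2, 10.7, 10.7 and 10.05 RPKM in E2+DHT replicates 1 to 4. All E2+DHT sums lay above all E2 sums, and the ratio of their means, 1.25, is given without a test. The MT1 genes alone summed to 4.67 ± 0.757 RPKM in E2 and 5.43 ± 0.420 RPKM in E2+DHT (mean ± SD, n = 4 per group), with overlapping libraries. By RPKM, and so subject to the exon lengths used, MT2A made up 45.3% ± 5.96 of the summed level in E2 and 49.1% ± 2.14 in E2+DHT (mean ± SD, n = 4 per group). Its level was 2.15 to 2.78 times that of MTF1 in E2 libraries and 3.03 to 3.48 times in E2+DHT libraries.

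The upstream sequences are shown for MT2A, the highest by RPKM, MT1X, the lowest by RPKM of the tested metallothioneins, and MT1H, listed at 0. RefSeq promoter sequences (GRCh38.p14, a later build than that of the table) were on hand for 4 of the 9 members, the fourth being MTF1. Capitals mark matches to the metal response element core, searched as TGCACNC and TGCGCNC on both strands, in the 250 bases before the transcription start. The stretches lie on the plus strand at chr16:56608334-56608583 (MT2A), chr16:56682220-56682469 (MT1X) and chr16:56669564-56669813 (MT1H).
MT2A: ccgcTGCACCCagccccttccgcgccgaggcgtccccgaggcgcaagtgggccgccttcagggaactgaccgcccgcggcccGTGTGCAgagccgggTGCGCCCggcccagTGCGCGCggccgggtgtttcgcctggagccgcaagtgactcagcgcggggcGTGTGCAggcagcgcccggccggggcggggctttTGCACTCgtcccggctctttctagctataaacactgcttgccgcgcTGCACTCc
MT1X: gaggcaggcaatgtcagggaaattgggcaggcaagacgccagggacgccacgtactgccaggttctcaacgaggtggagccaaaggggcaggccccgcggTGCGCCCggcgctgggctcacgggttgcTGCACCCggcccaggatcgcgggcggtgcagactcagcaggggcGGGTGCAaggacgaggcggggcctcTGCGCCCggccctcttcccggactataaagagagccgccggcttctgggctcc
MT1H: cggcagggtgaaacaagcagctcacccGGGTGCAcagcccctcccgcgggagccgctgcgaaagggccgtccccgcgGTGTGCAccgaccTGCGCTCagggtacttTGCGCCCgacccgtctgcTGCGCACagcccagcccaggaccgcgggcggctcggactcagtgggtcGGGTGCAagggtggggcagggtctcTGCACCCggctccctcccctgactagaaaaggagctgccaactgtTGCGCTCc

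MT2A had 7 matches, MT1X 4, MT1H 8 and MTF1 0. Among the 35116 RefSeq promoters searched in the same way, 24.8% held at least 1 match in these 250 bases, 0.370% at least 4, 0.0313% at least 7 and 0.0171% at least 8. MT1H, listed at 0 RPKM, thus had more matches than MT2A. No promoter of these 4 genes held the steroid receptor motif AGAACA on either strand, which 12.4% of all promoters held, or its 15-base palindrome as known for the glucocorticoid and androgen receptors, found in 1 of the 35116. A match here is a match of letters only, and no match says only that these letters are not in this window. Bases further upstream and receptor elements with other letters were not searched, so known elements of these genes can have been missed.

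**Figure D4:**
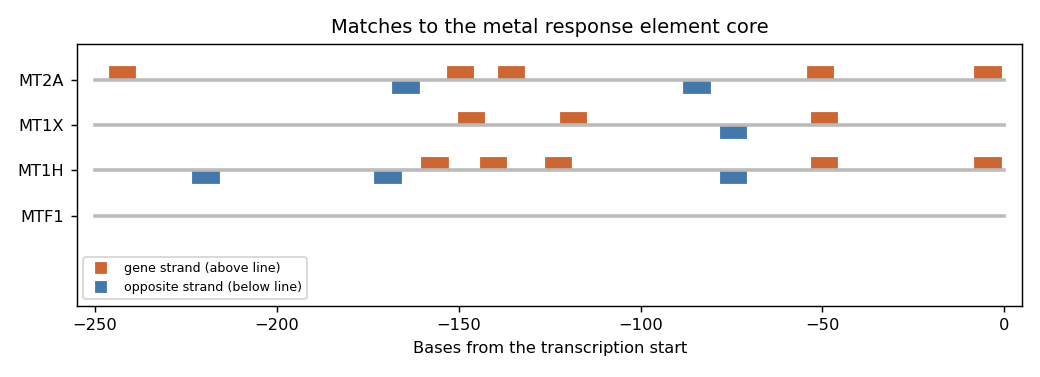
Matches to the metal response element core (TGCACNC or TGCGCNC) in the 250 bases before the transcription start of 4 members, by distance in bases from the start. Orange boxes above the line are on the strand of the gene and blue boxes below it on the opposite strand. MT2A has 7 matches, MT1X 4, MT1H 8 and MTF1 0.

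Genes flanking the cluster were examined for a change shared with it. Of 14 other genes within 200 kb, 5 were tested, 0 passed in either direction, and their log2 fold changes ran from -0.096 to -0.011 with a median of -0.059. The nearest tested gene on the MT2A side was BBS2, a subunit of the ciliary BBSome complex, 87.9 kb away, at 2.41 ± 0.183 RPKM with E2 and 2.29 ± 0.0973 RPKM with E2+DHT (n = 4 each, limma adjusted p = 0.999). On the MT1X side it was NUP93, a nuclear pore protein, 45.9 kb away, at 3.96 ± 0.431 RPKM with E2 and 3.91 ± 0.173 RPKM with E2+DHT (n = 4 each, limma adjusted p = 1.00).

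Zinc handling was represented by the SLC30 exporters and SLC39 importers. Of 24 zinc transporters 15 were tested, 0 passed as higher and 0 as lower, and the median log2 fold change was 0.0042. The lowest p-values were those of SLC39A13, a Golgi and vesicle zinc importer into the cytosol, at a log2 fold change of 0.22, and SLC30A6, a zinc transporter of the secretory pathway, at -0.067 (limma adjusted p = 0.999 for both). SLC39A13 was at 0.34 without E2 replicate 1, at 0.10 without E2 replicate 2 and at 0.12 without E2 replicate 4. With title-based groups it was at -0.052. The groups of SLC30A6 did not overlap, with E2 at 5.73 to 5.76 RPKM and E2+DHT at 5.35 to 5.61 RPKM. Such separation in the lower direction was found in 1.42% of all tested genes. SLC30A1, the zinc exporter of the plasma membrane and a classic MTF1 target, was picked by that role. Its level was 21.0 ± 3.04 RPKM with E2 and 21.0 ± 1.66 RPKM with E2+DHT (n = 4 each, log2 fold change 0.0042, 95% interval -0.23 to 0.24, limma adjusted p = 1.00), with a sign that flips to -0.015 after median centring and to -0.072 at equal RPKM sums.

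Of 12 copper handling genes 10 were tested, and 0 passed as higher and 0 as lower. ATP7B, a copper pump, had a log2 fold change of 0.25 and SLC31A1, the main copper importer, 0.11 (limma adjusted p = 0.999 for both). Of 19 genes of oxidative and metal stress 18 were tested, 0 passed as higher and 0 as lower, with a median log2 fold change of 0.078. OSGIN1, a target of the oxidative stress factor NRF2, was at 3.72 ± 0.455 RPKM with E2 and 4.62 ± 0.454 RPKM with E2+DHT (n = 4 each). It did not pass (limma adjusted p = 0.758, unadjusted p = 0.0143). Its groups did not overlap, as in 1.98% of all tested genes in the higher direction. DNAJB1, a heat shock co-chaperone, was at 24.3 ± 2.35 RPKM with E2 and 27.8 ± 2.54 RPKM with E2+DHT (n = 4 each, limma adjusted p = 0.999).

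Among 15 genes known as targets shared with corticosteroid receptors, 11 were tested. FKBP5 passed as higher, 0 passed as lower and 10 did not pass, while 0.176% of all tested genes passed as higher. All 11 log2 fold changes were above 0, as were 56.3% of all, with a median of 0.35 against 0.014 for all tested genes. At an unadjusted p under 0.05 (limma) 7 were called, all higher, against 2.87% of all tested genes. The list was written with earlier results of these data known, so these values only describe it. FKBP5, a receptor co-chaperone, went from 0.785 ± 0.0897 to 2.20 ± 0.263 RPKM with DHT added (n = 4 each, limma adjusted p = 0.000727). Its log2 fold change was 1.07 (95% interval 0.87 to 1.27), and that of MT2A 0.40 (95% interval 0.21 to 0.60). With only the 4 records whose labels agree, FKBP5 no longer passed (log2 fold change 1.04, limma adjusted p = 0.894). Under title-based groups its direction was lost too (log2 fold change -0.029, limma adjusted p = 1.00).

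By Pearson correlation of log2(RPKM + 0.5) over the 8 libraries, the tested genes most like MT2A were ARHGEF28 (0.98), ZNF761 (0.97), PPP3CA (0.97), TNFAIP8 (0.97) and KCNK1 (0.96). Taken as deviations from the treatment means, the same correlations were 0.97, 0.87, 0.89, 0.87 and 0.89. The 5 most like MT1X were MT-TY, CTD-2124B8.2, C2orf76, ARNT and C11orf1, at 0.87 to 0.90. These are the highest of 11374 coefficients each, over points that share library, depth and treatment, and are given as a description. Among the members themselves MT2A was most like MT1E (0.79 over 8 libraries, 0.48 within treatments). With MT1X it was 0.18, and -0.76 within treatments.

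**Figure D5:**
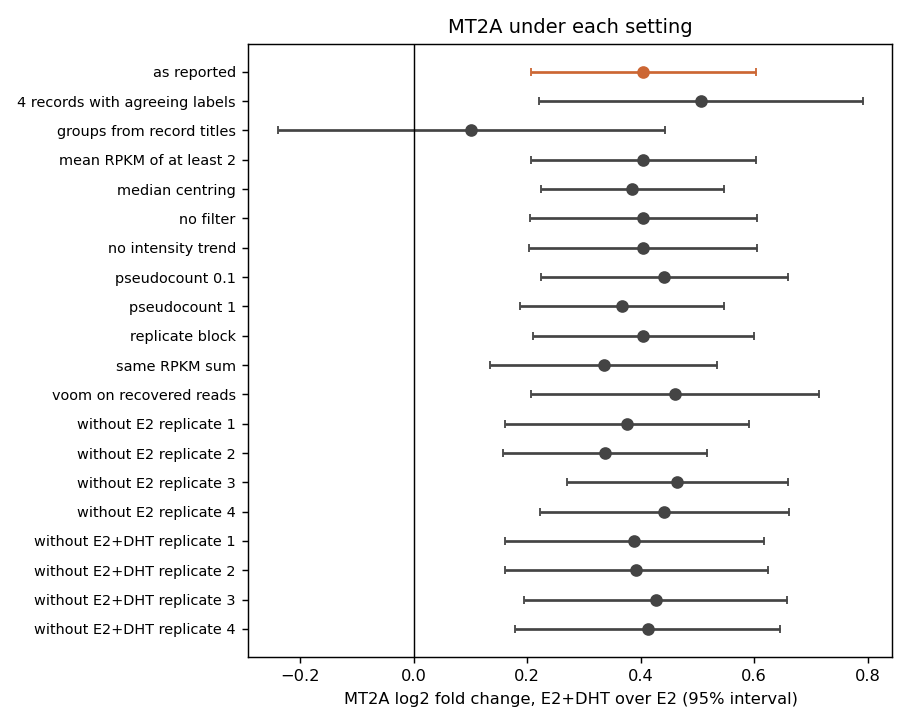
Log2 fold change of MT2A, E2+DHT over E2, with 95% interval, as reported (orange) and under 19 other settings (grey). All 20 values lie above 0, from 0.10 with groups from the record titles, where the interval includes 0, to 0.51 with the 4 records whose labels agree.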

How the data were processed

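Total RNA libraries were made with a stranded kit and read as paired ends of 100 bases, per the labels' protocols. The authors deposited RPKM values of 57773 genes, with the span of each gene in another column (other unit, bases). Per the submitters' processing notes the build was hg19. For the aligner, the counter, its use of strand and the annotation, nothing is given in the sources used here. Whole reads were recovered for all 27594 genes above 0 (100% at a tolerance of 0.0001 reads) at the shortest exon length that gave them, so low genes may have more reads than stated.

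Values were tested as log2(RPKM + 0.5) in genes with a mean of at least 0.5 RPKM over the 8 libraries, with limma 3.58.1 in R 4.3.3 (empirical Bayes with trend, two-sided, Benjamini-Hochberg, threshold 0.05), without a replicate block. The test was tried on simulated reads. Tables used Python 3.11.15, pandas 2.3.3, NumPy 2.4.6 and matplotlib 3.10.9. Named were all members, other metallothionein rows above 0, of each list the genes past the threshold or otherwise the 2 with the lowest p, the nearest tested flanking genes and the 5 most alike. SLC30A1 was added. The members and lists were chosen with earlier results of these data known. Alternatives were the pseudocount, filter, scaling, trend, replicate block, voom on recovered reads, other group labels and leaving out each library.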

Additional observations from a re-analysis of the deposited data

Results flagged for a closer look

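The named genes and the library measures (size, exon share and summed metallothionein level) gave 59 sets of 4 values, 1 set per treatment. In 5 of these a single library stood far off, with most of the range lying between it and the next value (Dixon's criterion at 95%). Chance flags about 1 in 20 such sets. MT1M reached 0.167 RPKM in E2 replicate 2 and was listed at 0 elsewhere, a difference of a few reads. With the rest of its set at 0, any value above 0 would be flagged, so the chance rate does not apply to MT1M. FKBP5 was lowest in E2 replicate 1 at 0.652 RPKM, the other E2 libraries having 0.813 to 0.841 RPKM. DNAJB1 was lowest in E2 replicate 2 at 20.8 RPKM, the others having 25.07 to 25.8 RPKM. NUP93 was lowest in E2+DHT replicate 1 at 3.66 RPKM, the others having 3.97 to 4.03 RPKM. KCNK1 was highest in E2+DHT replicate 2 at 11.5 RPKM, the others lying from 10.4 to 10.52 RPKM. MT2A, MT1E, MT1F, MT1X and MTF1 had no such library in either treatment.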

How the results depend on the processing

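The members count of 0 held in every alternative run, while MT2A kept its direction in 19 of 19 and MT1E in 18 of 18. Counts of all genes past the threshold, 21 as reported (20 higher, 1 lower), were 33 after median centring, 5 without a filter, 72 with the replicate block, 2 with title-based groups and 0 in the 4 records with agreeing labels (limma; unadjusted p under 0.05 in 286 genes), a fit with fewer libraries. Without single libraries they ran from 6 to 18. The cause was not tested otherwise. With the replicate block no member passed (MT2A limma adjusted p = 0.0915). Deviations of libraries with the same number correlated at 0.70, 0.45, 0.12 and 0.083, and most libraries were most like their own number. The exceptions were E2 replicate 4, most like E2+DHT replicate 2 (0.33), and E2+DHT replicate 3, most like E2 replicate 4 (0.22). The labels do not state a pairing, so the numbers were not taken as pairs.

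Log2 fold changes that turned sign with groups from the titles were -0.25 for MT1X, -0.13 for MT1F, -0.029 for FKBP5, -0.033 for ARNT, -0.056 for ATP7B, 0.029 for BBS2, -0.16 for C11orf1, -0.18 for C2orf76, -0.32 for CTD-2124B8.2, -0.73 for MT-TY, -0.024 for MTL5, 0.10 for NUP93, -0.043 for SLC31A1 and -0.052 for SLC39A13. With the 4 agreeing records they were -0.0030 for MT1X, -0.024 for C11orf1, -0.17 for CTD-2124B8.2, -0.011 for MTL5 and 0.090 for NUP93. Median centring gave -0.0091 for MTF1, -0.0063 for MTL5 and -0.015 for SLC30A1. Equal RPKM sums gave -0.049 for MTF1, -0.035 for ARNT, -0.052 for MTL5 and -0.072 for SLC30A1. Without single libraries MTF1 ran from -0.014 to 0.034, MTL5 from -0.040 to 0.070, NUP93 from -0.076 to 0.035 and SLC30A1 from -0.061 to 0.076. For other genes that did not pass these ranges were 0.10 to 0.34 for SLC39A13, 0.061 to 0.16 for SLC31A1, 0.12 to 0.22 for DNAJB1 and -0.10 to -0.026 for BBS2. Among tested members depth limits MT1X and MT1E most. The reads of MT1X and MT1F are those at the shortest exon length that gave whole reads, which differs from the annotated length.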
